A study of Mus musculus with 6 samples.

Results

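The genes described here are 41 mouse genes that act in G2 phase and mitosis, chosen as a list by name and matched to the Ensembl identifiers of the deposited table, which holds 55400 genes. The list covers the B-type cyclins and their kinase, the mitotic kinases, the chromosomal passenger complex, activators of the anaphase-promoting complex, kinetochore and spindle proteins, chromosome structure proteins and cytokinesis factors. The assay was sequencing of polyadenylated RNA. The cells were motor neuron progenitors on day 4 of differentiation from a C57BL/6 mouse embryonic stem cell line. The 6 libraries comprise 3 labelled Setd5sh and 3 labelled control, all with the genotype label WT, numbered 1 to 3 in each group and called Setd5sh 1, control 1 and so on below. Both groups had 1 µM retinoic acid and 0.5 µM SAG, a Sonic hedgehog agonist, from day 2, and 1 µg/mL doxycycline starting 36 h earlier than harvest. The name Setd5sh has the form of a short hairpin RNA against Setd5; its sequence, its vector, the construct in the control cells and the number of clones are not stated in the labels, nor is it stated that replicates were separate cultures. P-values therefore measure the spread between these samples only, which may be technical.

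Transcripts of these genes are scarce in cells that have left the cycle and accumulate from late S phase to mitosis. Their promoters are known to be repressed in quiescent cells by the DREAM complex and activated in cycling cells by the MuvB core with B-Myb and FoxM1, through the cell cycle genes homology region (CHR), while NF-Y acts through CCAAT boxes. In the neural tube, ventricular zone progenitors express them and postmitotic motor neurons do not. In bulk RNA, fewer cycling cells and less mitotic RNA per cell cannot be told apart.

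These promoter letters were shared by most of the listed genes. RefSeq promoter windows on build GRCm38.p6, which run from upstream of a start site to just past it, were found for 35 of the 41 genes, in 39 windows. The CHR letters TTTGAA, searched on both strands, stood in 26 of the 39 windows (66.7%), against 17.9% of all 32851 windows and 11.3% of the 11294 windows of tested genes. CCAAT, searched on both strands, stood in 30 windows (76.9%), against 37.4% of all windows and 38.2% of those of tested genes. CHR and CCAAT were present together in 21 windows (53.8%), against 6.95% of all windows and 4.76% of those of tested genes, and at least 2 CCAAT boxes in 23 (59.0%), against 11.7% and 14.8%. The 2 motifs do not overlap in letters, and a match is a description of these letters and not a mapped site. The 160 bases upstream of the start site are shown for 7 genes, selected after their values were seen to span the range of behaviour described below, from genes that stood low in control 1 (Cdk1, Ccnb2, Cdc20 and Ube2c) to genes that stood high there (Top2a, Kif11 and Mki67). They are written 5′ to 3′ on the strand of the gene, and capitals mark TTTGAA and CCAAT or their reverse complements TTCAAA and ATTGG.
Cdk1 (chr10:69352913-69353072, minus strand): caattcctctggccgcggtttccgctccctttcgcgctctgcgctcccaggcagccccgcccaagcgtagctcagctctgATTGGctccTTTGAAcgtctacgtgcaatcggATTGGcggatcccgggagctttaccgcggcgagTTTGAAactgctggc
Ccnb2 (chr9:70421555-70421714, minus strand): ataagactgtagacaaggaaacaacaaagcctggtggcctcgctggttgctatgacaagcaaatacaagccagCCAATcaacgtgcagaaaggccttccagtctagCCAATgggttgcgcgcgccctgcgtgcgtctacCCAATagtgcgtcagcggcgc
Cdc20 (chr4:118437344-118437503, minus strand): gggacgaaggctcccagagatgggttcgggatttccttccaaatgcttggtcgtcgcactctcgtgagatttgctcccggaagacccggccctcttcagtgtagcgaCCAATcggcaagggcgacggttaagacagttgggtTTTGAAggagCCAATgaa
Ube2c (chr2:164769769-164769928, plus strand): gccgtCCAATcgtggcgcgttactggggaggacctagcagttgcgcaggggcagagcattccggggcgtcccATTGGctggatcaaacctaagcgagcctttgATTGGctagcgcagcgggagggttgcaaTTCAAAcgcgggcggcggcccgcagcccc
Top2a (chr11:99024190-99024349, minus strand): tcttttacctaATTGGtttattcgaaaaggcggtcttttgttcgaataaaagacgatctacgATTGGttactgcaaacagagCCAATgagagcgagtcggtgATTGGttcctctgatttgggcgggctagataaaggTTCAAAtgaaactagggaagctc
Kif11 (chr19:37376222-37376381, plus strand): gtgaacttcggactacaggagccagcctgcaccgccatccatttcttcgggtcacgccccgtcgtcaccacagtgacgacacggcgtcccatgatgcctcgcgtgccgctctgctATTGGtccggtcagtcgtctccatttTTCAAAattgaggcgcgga
Mki67 (chr7:135716380-135716539, minus strand): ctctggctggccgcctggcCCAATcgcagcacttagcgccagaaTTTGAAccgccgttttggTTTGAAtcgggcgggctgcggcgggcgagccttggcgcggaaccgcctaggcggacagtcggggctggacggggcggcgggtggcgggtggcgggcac
Of the 7 genes, 6 carried both motifs in these bases. Within the printed bases, Cdk1 had 2 CHR matches and 2 CCAAT boxes, Cdc20 1 and 2, Ube2c 1 and 3, Top2a 1 and 4, Kif11 1 and 1, and Mki67 2 and 1. Ccnb2 had 3 CCAAT boxes and no CHR match there, but its full window held TTTGAA outside the printed bases, 167 bases upstream of the start site and just past it. Genes with no window in the table were Aurkb, Cdc25c, Cdca2, Dlgap5, Smc4 and Tpx2.

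Total counts were 20726820, 27660851 and 19639303 in Setd5sh 1 to 3 and 32046466, 27153918 and 19871993 in control 1 to 3. The 41 genes took 0.695%, 0.661% and 0.757% of the counts in Setd5sh 1 to 3, and 0.995%, 0.677% and 0.683% in control 1 to 3, and the smallest count of any of them in any library was 444. Setd5 itself stood at 14.41, 13.45 and 12.92 FPKM in Setd5sh, against 22.21, 18.79 and 16.74 FPKM in control. FPKM are fragments scaled to exonic length and library depth. All Setd5sh values of Setd5 were below all control values, as for 2.14% of all tested genes. The exact two-sided permutation p was 0.1, the smallest that 3 against 3 allows, and the edgeR adjusted p was 0.995. The log2 fold change of Setd5, Setd5sh over control, was -0.51 (SE 0.16) with all libraries and -0.36 (SE 0.13) without control 1. The 6 progenitor markers (Olig2, Olig1, Nkx6-1, Pax6, Sox2 and Nes) were all detected and summed to 327, 264 and 289 FPKM in Setd5sh 1 to 3, against 241, 233 and 255 FPKM in control 1 to 3, with 4 positive and 2 negative log2 fold changes. The 7 postmitotic motor neuron markers summed to 11.6, 19.7 and 10.5 FPKM in Setd5sh 1 to 3, against 14.5, 24.7 and 14.2 FPKM in control 1 to 3. The highest of them was Mnx1, at 5.05 to 17.11 FPKM in Setd5sh and 10.65 to 22.78 FPKM in control, while Isl1 reached 2.75 FPKM, Slc18a3 1.5 FPKM, and Isl2 and Chat at most 0.12 FPKM in any library. The summed level of 11 young-neuron markers was 79.0, 49.0 and 82.4 FPKM in Setd5sh 1 to 3, against 43.4, 32 and 40.8 FPKM in control 1 to 3. Tubb3 was the highest of them in every library, at 53.5, 30.5 and 55.0 FPKM in Setd5sh and 19.0, 17.3 and 26.1 FPKM in control. Every Setd5sh value of 3 of the 11, Tubb3, Ina and Nefl, was above every control value, as for 3.07% of all tested genes. For Nefl the gap was narrow, at 2.14 FPKM in Setd5sh 1 against 2.11 FPKM in control 2. Elavl3, Elavl4, Dcx, Map2, Rbfox3 and Snap25 were highest in control 1. The summed level of 9 pluripotency markers was 27.9, 63.0 and 9.19 FPKM in Setd5sh and 19.6, 84.1 and 27.7 FPKM in control, so the libraries numbered 2 were the highest in each group. The 10 fibroblast markers, for the feeder layer on which the stem cells grew, summed to at most 9.33 FPKM in any library, and Lum, Fap and S100a4 were at or below 0.06 FPKM. Of the 11 young-neuron markers 6 were tested, all with a positive log2 fold change, 2 of them at an unadjusted edgeR p under 0.05 and 0 at an adjusted one. Of the 6 progenitor markers, 1 had an unadjusted edgeR p under 0.05 and 0 an adjusted one. Over all tested genes, 42.6% were positive, 1.22% had an unadjusted edgeR p under 0.05 and 0% an adjusted one. The part of these markers in the results below was not tested.

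All 41 genes passed the expression minimum of a mean of 1 FPKM and none passed the test between Setd5sh and control. In edgeR's quasi-likelihood test over 12199 genes, 0 of the 41 passed an adjusted p of 0.05, against 0% of all tested genes, and 0 had an unadjusted p under 0.05, against 1.22% of all tested genes. DESeq2 and limma on log2(FPKM + 1) also called 0 of the 41, against 0 of all 12199 tested genes in each. Both had 0 of the 41 at an unadjusted p under 0.05, against 221 of the 12199 in DESeq2 and 152 in limma. The smallest adjusted p of any of the 41 was 0.995. The log2 fold change, Setd5sh over control, was negative for 29 genes and positive for 12, when 42.6% of all tested genes were positive, with a median of -0.09 over the 41 and -0.04 over all tested genes. For each of the 41, the FPKM values of the 2 groups overlapped: 0 had all Setd5sh libraries above control, against 3.07% of all tested genes, and 0 had them all below, against 2.14%.

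Control 1 was the extreme library for 36 of the 41 genes. Its FPKM was the highest of the 6 libraries for 24 of the 41 genes, against 31.9% of all tested genes, and the lowest for 12, against 36.7%. On the log2 scale of TMM-scaled CPM, control 1 minus the mean of controls 2 and 3 ran from -0.71 for Gtse1 to 2.95 for Cenpf, with a median of 0.38 over the 41 genes. It was at least 2-fold higher in control 1 for 13 of the 41, against 12.5% of all tested genes, and at least 2-fold lower for 0, against 2.54%. Without control 1, the log2 fold change was positive for 31 genes and negative for 10, when 51.5% of all tested genes were positive, with a median of 0.06 over the 41 and 0.01 over all tested genes. Those 31 were 16 of the 17 genes with a GC content below 44.8% and 15 of the other 24. Across the 41 genes the log2 fold change had a Spearman correlation with GC content of 0.84 with all libraries and of -0.56 without control 1, and across all tested genes of 0.48 and -0.18, as descriptions across genes that share libraries. The part of GC content in these signs was not tested. The sign turned from negative to positive for 23 genes and from positive to negative for 4, namely Cdk1, Plk1, Birc5 and Psrc1. Without control 1, 0 of the 41 passed the adjusted threshold, against 0% of all tested genes. An unadjusted edgeR p under 0.05 was reached by 2 genes, Cenpe and Mki67, against 2.96% of all tested genes.

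**Figure D1:**
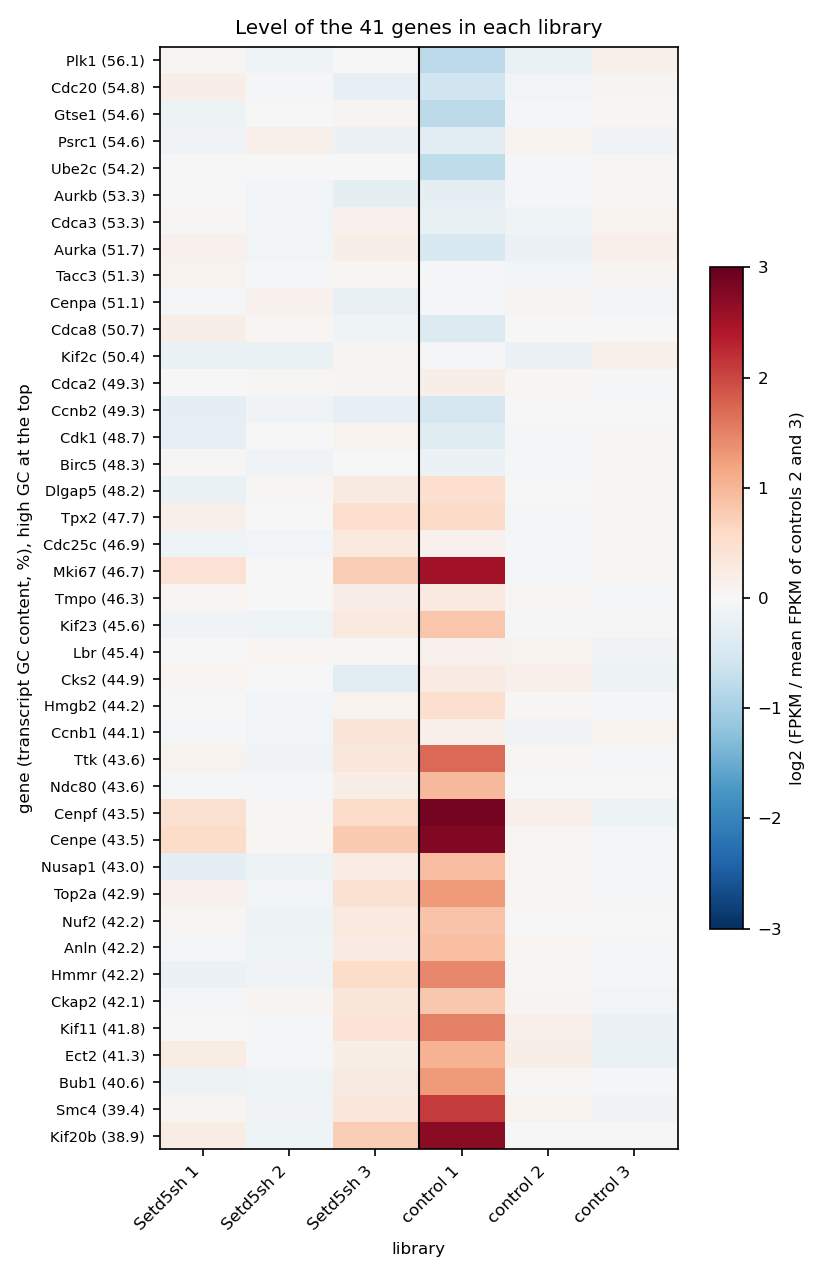
Log2 ratio of the deposited FPKM in each library to the mean of controls 2 and 3, for the 41 genes, Setd5sh libraries on the left and control libraries on the right, ordered by transcript GC content with the highest at the top. Control 1 is far above the other libraries for the GC-poor genes at the bottom, Mki67 further up, and below them for Plk1, Gtse1 and Ube2c near the top.

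The B-type cyclins and their kinase, which drive entry into mitosis, overlapped between the groups, with 3 of the 6 genes of this module positive with all libraries and 3 without control 1. Cdk1 (ENSMUSG00000019942, mm10 chr10:69335146-69352938, minus strand), the kinase itself, had 38.5, 45.2 and 49.0 FPKM in Setd5sh 1 to 3 and 35.5, 44.1 and 47.0 FPKM in control 1 to 3. Ccnb1, cyclin B1, had 73.6, 71.5 and 99.1 FPKM in Setd5sh and 84.3, 71.0 and 81.6 FPKM in control. Ccnb2, cyclin B2, had 76.6, 87.6 and 79.9 FPKM in Setd5sh and 66.7, 93.2 and 95.3 FPKM in control. The values of each of these genes interleaved, and Cdk1 averaged 44.2 ± 5.30 FPKM in Setd5sh, against 42.2 ± 6.00 FPKM in control (SD, n = 3 each, as for all means below). Their log2 fold changes were 0.06 (SE 0.16), 0.03 (SE 0.18) and -0.07 (SE 0.16). Without control 1, Ccnb2 was the only one of the 41 genes with all 3 Setd5sh values below controls 2 and 3, against 8.74% of all tested genes, at a log2 fold change of -0.19 (SE 0.12). Per length, the mRNA levels of Ccnb1 and Ccnb2 were close to each other and above that of Cdk1 in each library. Of the Cdk1 partners, Cks2, a small Cdk-binding subunit, averaged 117 ± 15.5 FPKM in Setd5sh and 132 ± 19.1 FPKM in control. Cdc25c, a phosphatase that activates Cdk1, stood at 7.74 ± 1.31 FPKM in Setd5sh, compared with 7.80 ± 0.451 FPKM in control. Gtse1, a microtubule-binding protein of G2 cells that restrains p53, had 41.2, 45.8 and 47.9 FPKM in Setd5sh and 26.3, 43.5 and 47.7 FPKM in control, with control 1 alone apart. Its log2 fold change of 0.20 (SE 0.21) was 0.01 (SE 0.13) without control 1.

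The mitotic kinases split into those low and those high in control 1. Plk1, the polo-like kinase that acts from centrosome maturation to cytokinesis, had 143.8, 129.6 and 139.9 FPKM in Setd5sh and 82.3, 123.7 and 157.6 FPKM in control. Aurka, the centrosomal Aurora kinase, had 69.3, 59.6 and 70.8 FPKM in Setd5sh and 45.5, 55.7 and 70.1 FPKM in control. For both, control 1 was the lowest library, and the log2 fold changes of 0.18 (SE 0.22) and 0.22 (SE 0.18) were smaller without it, at -0.003 (SE 0.16) and 0.11 (SE 0.16). The checkpoint kinases stood the other way. Ttk, also known as Mps1, had 6.75, 5.87 and 8.02 FPKM in Setd5sh and 20.6, 6.57 and 6.06 FPKM in control. Bub1, which recruits checkpoint proteins to kinetochores, had 16.4, 16.6 and 21.9 FPKM in Setd5sh and 43.9, 18.6 and 17.7 FPKM in control. Cenpe (ENSMUSG00000045328, mm10 chr3:135212537-135273611, plus strand), a kinetochore kinesin that aligns chromosomes, had 5.85, 4.13 and 6.85 FPKM in Setd5sh and 27.3, 4.12 and 3.84 FPKM in control. Control 1 was 3.26 times the mean of controls 2 and 3 for Ttk, 2.42 times for Bub1 and 6.87 times for Cenpe in FPKM. The log2 fold change of Cenpe was -1.11 (SE 0.74) with all libraries and 0.52 (SE 0.21) without control 1. Cenpe was then the only one of the 41 with all Setd5sh values above controls 2 and 3, against 6.66% of all tested genes. Setd5sh 2 and control 2 were nearly equal for it, and its edgeR adjusted p was 0.997.

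The chromosomal passenger complex, which corrects kinetochore attachments and later directs cytokinesis, overlapped in both groups, with 2 of 3 genes positive with all libraries and 1 without control 1. Aurkb, its kinase, had 54.9, 52.9 and 45.8 FPKM in Setd5sh and 45.7, 54.0 and 57.3 FPKM in control, which gave a log2 fold change of -0.04 (SE 0.15). Birc5, survivin, averaged 37.2 ± 1.78 FPKM in Setd5sh and 36.6 ± 2.85 FPKM in control. Cdca8, borealin, averaged 42.2 ± 4.24 FPKM in Setd5sh, against 37.7 ± 5.76 FPKM in control, for a log2 fold change of 0.16 (SE 0.16), or 0.07 (SE 0.14) without control 1. The 3 genes listed with the anaphase-promoting complex, Cdc20, Ube2c and Cdca3, were all positive with all libraries, at a median log2 fold change of 0.14, against 0.02 without control 1. Cdc20, which activates the anaphase-promoting complex, had 213.9, 179.4 and 157.3 FPKM in Setd5sh and 124.6, 176.8 and 197.7 FPKM in control. Ube2c, the ubiquitin-conjugating enzyme of that complex, had 95.1, 97.2 and 96.1 FPKM in Setd5sh and 56.9, 94.0 and 98.6 FPKM in control. Apart from control 1, the 5 Ube2c values lay within 94.0 and 98.6 FPKM, and its log2 fold change of 0.21 (SE 0.20) was 0.02 (SE 0.13) without that library. Cdca3, a trigger of mitotic entry, averaged 48.9 ± 3.55 FPKM in Setd5sh and 45.7 ± 5.48 FPKM in control.

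**Figure D2:**
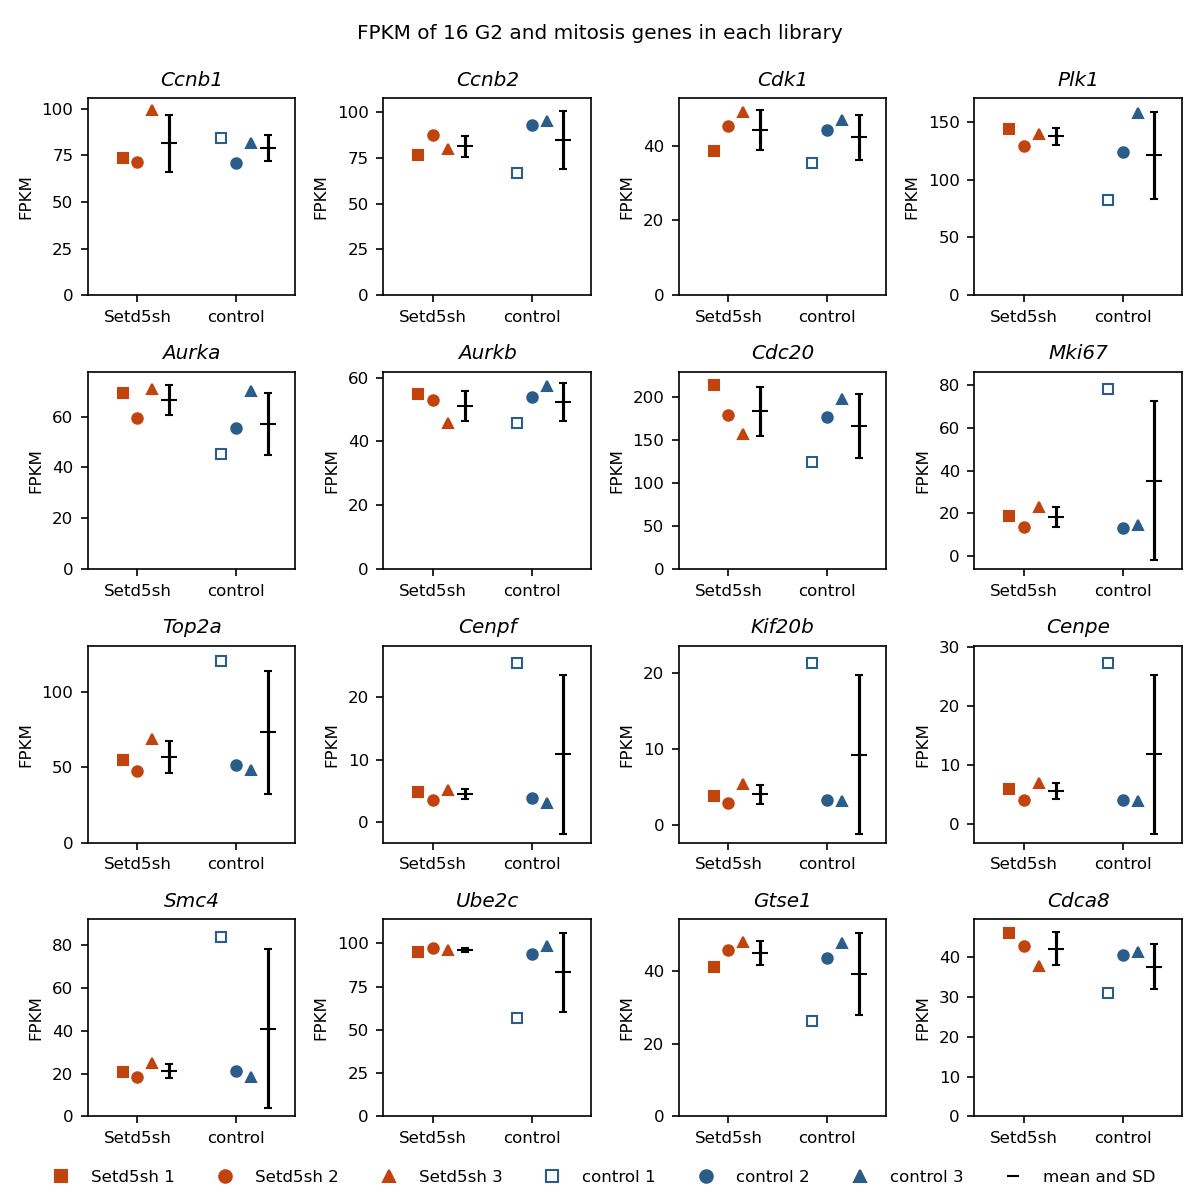
Deposited FPKM of 16 of the genes in each library, Setd5sh in orange left of control in blue, with the group mean and SD (n = 3 each) as black bars. The open square is control 1, which is the highest library for Mki67, Top2a, Cenpf, Kif20b, Cenpe and Smc4, and the lowest for Plk1, Ube2c and Gtse1, among others.

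None of the 4 kinetochore and centromere genes was positive with all libraries and 3 were without control 1, and Cenpf stood apart in control 1 by more than any other of the 41. Cenpf (ENSMUSG00000026605, mm10 chr1:189640606-189688086, minus strand), a large protein of the outer kinetochore corona, had 4.84, 3.58 and 5.11 FPKM in Setd5sh and 25.5, 3.86 and 3.14 FPKM in control. Its exonic length of 15433 bases is the longest of the 41. Control 1 stood at 7.27 times the mean of controls 2 and 3 in FPKM, and the other 5 libraries lay within 3.14 and 5.11 FPKM. The log2 fold change was -1.31 (SE 0.76) with all libraries and 0.40 (SE 0.18) without control 1, at an edgeR adjusted p of 0.995 and 0.997. Ndc80, which names the microtubule-binding complex of the kinetochore, had 4.29, 4.21 and 5.07 FPKM in Setd5sh and 8.69, 4.42 and 4.43 FPKM in control. Its partner Nuf2 had 8.86, 7.77 and 10.5 FPKM in Setd5sh and 15.6, 8.57 and 8.59 FPKM in control. Control 1 was 1.96 times the mean of controls 2 and 3 for Ndc80 and 1.82 times for Nuf2 in FPKM. Cenpa, the histone variant that marks centromeres, averaged 34.7 ± 4.41 FPKM in Setd5sh and 35.3 ± 2.06 FPKM in control. For Cenpa, control 1 was 0.977 times the mean of the other controls in FPKM and 1.04 times in TMM-scaled CPM.

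Of 10 spindle genes, 2 were positive with all libraries and 7 without control 1. Kif20b (ENSMUSG00000024795, mm10 chr19:34922361-34975745, plus strand), a kinesin that acts late in cytokinesis, had 3.78, 2.96 and 5.43 FPKM in Setd5sh and 21.3, 3.31 and 3.21 FPKM in control, and its transcripts had the lowest GC content of the 41, at 38.9%. Its log2 fold change was -1.24 (SE 0.74) with all libraries and 0.34 (SE 0.24) without control 1. Kif11, the kinesin that pushes spindle poles apart, had 13.8, 13.5 and 18.3 FPKM in Setd5sh and 39.4, 15.5 and 12.1 FPKM in control. Hmmr, a spindle-pole protein also known as a hyaluronan receptor, had 10.1, 10.7 and 16.7 FPKM in Setd5sh and 30.83, 11.72 and 11.03 FPKM in control. In each of these 3 genes control 1 was the highest library and Setd5sh 3 the second highest. Tpx2, an activator of Aurora A on spindle microtubules, had 58.0, 52.0 and 73.3 FPKM in Setd5sh and 77.8, 49.7 and 54.2 FPKM in control, and Nusap1, a microtubule-bundling protein, 12.8, 13.8 and 18.0 FPKM in Setd5sh and 29.2, 16.1 and 14.8 FPKM in control. Ckap2 averaged 22.7 ± 3.34 FPKM in Setd5sh and 25.7 ± 8.83 FPKM in control, and Dlgap5, which stabilises kinetochore fibres, 12.1 ± 1.93 FPKM in Setd5sh and 13.4 ± 2.87 FPKM in control. In the GC-richer spindle genes Kif2c, Tacc3 and Psrc1, control 1 was 0.964, 0.953 and 0.804 times the mean of controls 2 and 3 in FPKM. On the scale of TMM-scaled CPM the ratios were 1.03, 1.01 and 0.854. Kif2c, a microtubule depolymerase, averaged 35.7 ± 4.20 FPKM in Setd5sh and 37.7 ± 4.37 FPKM in control. Tacc3, a spindle scaffold, averaged 51.6 ± 2.61 FPKM in Setd5sh and 49.5 ± 3.26 FPKM in control, and Psrc1 49.1 ± 5.70 FPKM in Setd5sh and 47.0 ± 6.90 FPKM in control.

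The 7 genes of chromosome structure and the nuclear envelope, which include common markers of proliferation, were all negative with all libraries and all positive without control 1. Mki67 (ENSMUSG00000031004, mm10 chr7:135689784-135716361, minus strand), which encodes the Ki-67 coat of mitotic chromosomes, had 18.6, 13.7 and 23.0 FPKM in Setd5sh and 78.2, 13.1 and 14.3 FPKM in control. Top2a, topoisomerase II alpha, had 54.9, 47.4 and 68.6 FPKM in Setd5sh and 120.4, 51.7 and 48.1 FPKM in control. Smc4 (ENSMUSG00000034349, mm10 chr3:69004738-69034623, plus strand), the ATPase shared by both condensins, had 20.8, 18.3 and 24.7 FPKM in Setd5sh and 83.7, 21.1 and 18.2 FPKM in control. Control 1 alone was far from the others in each, at 5.71 times the mean of controls 2 and 3 in FPKM for Mki67, 2.41 times for Top2a and 4.26 times for Smc4. With all libraries the log2 fold changes were -0.98 (SE 0.68), -0.39 (SE 0.38) and -0.98 (SE 0.57). Without control 1 they were 0.45 (SE 0.20), 0.22 (SE 0.17) and 0.14 (SE 0.15), with edgeR adjusted p at or above 0.997 for all 3. Hmgb2, a DNA-bending protein with the highest FPKM of the 41, averaged 272 ± 16.3 FPKM in Setd5sh and 306 ± 64.3 FPKM in control. Cdca2, which recruits a phosphatase to chromosomes at anaphase, averaged 17.2 ± 0.337 FPKM in Setd5sh and 17.4 ± 1.44 FPKM in control. Tmpo (lamina-associated polypeptide) stood at 44.5 ± 3.28 FPKM in Setd5sh, compared with 45.4 ± 5.74 FPKM in control, and Lbr (lamin B receptor) stood at 39.8 ± 0.737 FPKM in Setd5sh, compared with 40.3 ± 3.73 FPKM in control.

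The 3 cytokinesis genes were all negative with all libraries and all positive without control 1. Kif23, the kinesin of centralspindlin, had 10.5, 10.2 and 13.8 FPKM in Setd5sh and 20.0, 10.9 and 11.5 FPKM in control. Ect2, the exchange factor that activates RhoA at the cleavage furrow, had 19.1, 15.9 and 18.9 FPKM in Setd5sh and 33.6, 18.6 and 14.2 FPKM in control. Anln, anillin, which scaffolds the contractile ring, had 9.17, 8.68 and 11.2 FPKM in Setd5sh and 17.6, 9.86 and 9.04 FPKM in control. In FPKM, control 1 was 1.78, 2.05 and 1.86 times the mean of the other controls. Without it, the log2 fold changes of -0.32, -0.32 and -0.35 became 0.06, 0.16 and 0.06.

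The position of control 1 followed the base composition and length of the transcripts. Across the 41 genes, control 1 minus the mean of controls 2 and 3 had a Spearman correlation of -0.87 with transcript GC content and of 0.72 with exonic length, and GC content and length themselves had one of -0.54. Across all 12199 tested genes the values were -0.64 and 0.23. These are descriptions across genes that share the same 3 libraries, and genes are not independent replicates. The 41 genes had a median GC content of 46.3%, against 50.5% for all tested genes, and a median exonic length of 4919 bases, against 4088. Of the 41, 17 had a GC content below 44.8%, as did 2438 of all tested genes, and all 17 were higher in control 1 than in the mean of the other controls, 12 of them at least 2-fold, when 43.7% of those 2438 genes were. Their median difference was 1.36 on the log2 scale, against 0.89 for the 2438. The median of the other 24 was -0.03, against -0.15 for the 9761 other tested genes, and 1 of the 24, Mki67, was at least 2-fold higher. Malat1, a nuclear RNA that is not on the list and was picked once its values were known, had 27.7, 36.2 and 22.2 FPKM in Setd5sh. It had 213.03, 41.01 and 23.44 FPKM in control. Its GC content of 42.3% is also below 44.8%, and its exonic length is 6983 bases. The part of GC content, length or RNA composition in the level of control 1 was not tested.

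**Figure D3:**
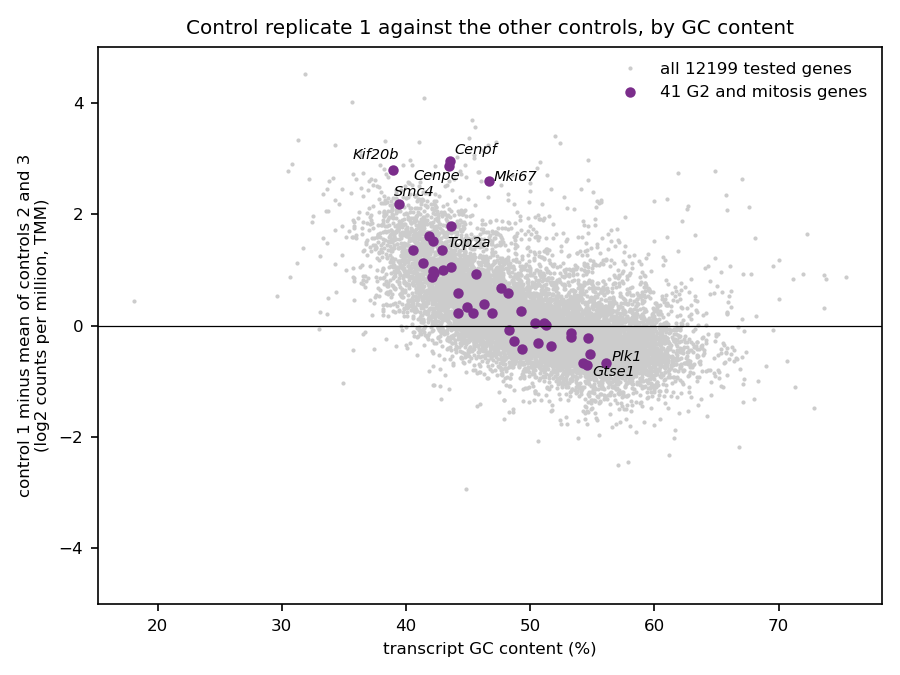
Control 1 minus the mean of controls 2 and 3, in log2 CPM, against transcript GC content in percent, for all 12199 tested genes in grey and the 41 G2 and mitosis genes in purple. The 41 genes run from 2.95 for Cenpf and 2.79 for Kif20b to -0.68 for Plk1 and -0.71 for Gtse1, with Mki67 at 2.60 at a GC content of 46.7%.

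With smooth trends on GC content and exonic length taken out of every library, control 1 minus the other controls had a median of 0.14 over the 41 genes, with a range from -0.35 to 2.12. It was still at least 2-fold higher for 6 of the 41, namely Mki67, Cenpe, Cenpf, Kif20b, Ttk and Smc4, against 4.05% of all tested genes. In the edgeR fit with these trends removed, the log2 fold changes of Cenpf, Mki67, Cenpe, Kif20b and Smc4 were -0.64, -0.68, -0.57, -0.49 and -0.36, and 20 of the 41 were positive. A replicate block of the libraries of equal number, in place of those trends, gave -0.57 for Cenpf, -0.41 for Mki67 and -0.44 for Cenpe. It gave -0.60 for Kif20b and -0.58 for Smc4, and 0 of the 41 passed, against 0 of all 12199 tested genes. The same 5 genes were the only ones of the 41 that passed the adjusted threshold under any of the settings tried. They did so when all 29462 genes with a read were tested without the expression minimum, where 0.248% of all genes passed, 0.187% as lower in Setd5sh. Their edgeR adjusted p were then 0.000321 for Cenpf, 0.00223 for Kif20b, 0.00775 for Cenpe, 0.0323 for Smc4 and 0.044 for Mki67. The SE of Cenpf was 0.22 in that setting, as for Ccnb1 and Plk1, against 0.76 with the expression minimum. These p-values therefore take little account of how far control 1 stood from the other controls. Without the expression minimum and without control 1, an alternative chosen after seeing the data, 0 of the 41 passed, against 93 of all 29462 genes. All 5 then had positive log2 fold changes of 0.41, 0.35, 0.54, 0.16 and 0.47.

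**Figure D4:**
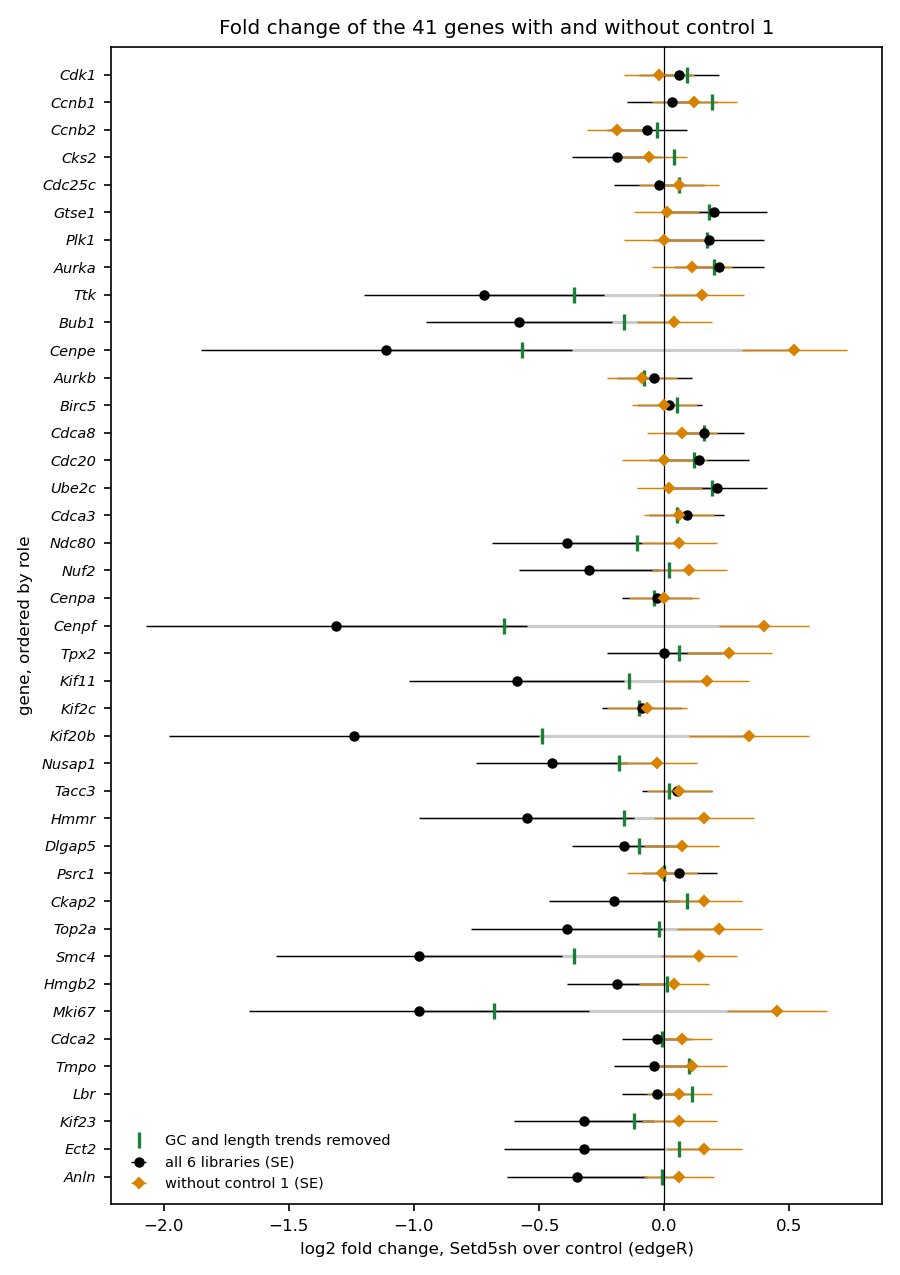
Log2 fold change, Setd5sh over control, of the 41 genes in order of role, from edgeR with all 6 libraries (black, with SE), without control 1 (orange, with SE) and with GC and length trends removed (green ticks). Cenpf, Kif20b, Cenpe, Smc4 and Mki67 lie near or beyond -1 with all libraries and above 0 without control 1.

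Among the 5 remaining libraries, Setd5sh 3 stood highest. Against the mean of controls 2 and 3, on the log2 scale of CPM, the median over the 41 genes was 0.05 in Setd5sh 1, -0.07 in Setd5sh 2 and 0.21 in Setd5sh 3, when the median over all tested genes was within 0.01 of 0 in each. The FPKM of Setd5sh 3 was above both of these controls for 28 of the 41 genes, against 35.0% of all tested genes. The counts were 13 in Setd5sh 1, against 27.7%, and 5 in Setd5sh 2, against 24.0%. Below both of these controls were 16 of the 41 in Setd5sh 2, against 24.5% of all tested genes. Those below numbered 11 in Setd5sh 1, against 42.7%, and 7 in Setd5sh 3, against 39.7%. Between libraries of the same number, Setd5sh 2 minus control 2 lay between -0.20 and 0.12 for each of the 41 genes, with 18 positive. Setd5sh 3 minus control 3 lay between -0.34 and 0.82, with 28 positive and a median of 0.22. As a ratio of FPKM, Setd5sh 3 over control 3 was 1.78 for Cenpe, 1.69 for Kif20b and 1.63 for Cenpf, which were also high in control 1. Among genes lowest in control 1, that ratio was 0.796 for Cdc20 and 0.799 for Aurkb, but 1.04 for Cdk1 and 1.01 for Gtse1. The part of GC content and length in the level of Setd5sh 3 was not tested. Setd5sh 1 minus control 1 lay between -2.53 and 0.77, with 13 positive and a median of -0.31. The medians of these 3 same-number differences differed in sign, and the labels do not say that equal numbers pair the libraries.

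None of the other cell cycle genes passed the adjusted threshold in edgeR with or without that library. Of 38 further G2 and mitosis genes, 17 had a positive log2 fold change with all libraries and 29 without control 1. The 2 with the smallest p were G2e3, a ubiquitin ligase, at 4.92, 4.97 and 6.70 FPKM in Setd5sh, compared with 18.7, 6.50 and 4.93 FPKM in control, and Gas2l3, a cytoskeletal linker, at a log2 fold change of -0.56 (SE 0.33). Of 29 further kinetochore and checkpoint genes, 9 were positive with all libraries and 23 without control 1. Knl1, the scaffold that binds Bub1, had 2.76, 2.04 and 3.38 FPKM in Setd5sh and 15.03, 2.51 and 2.02 FPKM in control. Cenpc1 of the inner kinetochore had a log2 fold change of -0.57 (SE 0.37). Like Cenpf and Cenpe, Knl1 was high in control 1 alone, at 6.64 times the mean of the other controls in FPKM. It passed edgeR's test without the expression minimum (log2 fold change -1.17, adjusted p = 0.00108). Its SE was 0.24 in that setting, against 0.74 with the expression minimum.

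Condensin and cohesin genes, which compact and tie chromatids, were the lowest of the other cell cycle lists with all libraries, at a median log2 fold change of -0.47 over 19 genes with 4 positive. Without control 1 the median was 0.13 with 17 positive. Of the 19, 10 were at least 2-fold higher in control 1 than in the other controls, against 12.5% of all tested genes. Their median GC content was 42.6%, and of all tested genes with a GC content below 44.8%, 43.7% were at least 2-fold higher in control 1. Sgo2a, a protector of centromeric cohesion, and Ncapg, a condensin subunit, had the smallest p there. Sgo2a stood at -0.84 (SE 0.50), or 0.08 (SE 0.21) without control 1, and Ncapg at -0.74 (SE 0.44), or 0.03 (SE 0.17) without it. The 17 APC/C genes had 11 positive members with all libraries and 13 without control 1. Anapc16 stood at 0.19 (SE 0.16) and Cdc27 at -0.48 (SE 0.44), or 0.29 (SE 0.18) without control 1. Of 10 genes that control Cdk1 at mitotic entry, 4 were positive with all libraries and 8 without control 1, with Chek1 at -0.54 (SE 0.39) and Cdc25a at 0.18 (SE 0.14).

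Of 16 genes of the MuvB, B-Myb, FoxM1, DREAM and NF-Y group, 15 were tested, with a median log2 fold change of 0 with all libraries and 0.11 without control 1. E2f4, the repressive E2F of DREAM, averaged 56.3 ± 5.23 FPKM in Setd5sh, against 48.8 ± 7.68 FPKM in control, for a log2 fold change of 0.20 (SE 0.16). Tfdp2, a dimerisation partner of E2F proteins, stood at -0.32 (SE 0.26). The 39 S phase genes had 23 positive members and a median of 0.05 with all libraries, and 34 positive and a median of 0.11 without control 1. Uhrf1, which couples DNA methylation to replication, stood at 0.27 (SE 0.16) and the replication licensing factor Cdc6 at 0.22 (SE 0.14). Of 8 genes of cell cycle exit, 5 were positive, with Btg2 at 0.23 (SE 0.14) and the Cdk inhibitor Cdkn1a at 0.41 (SE 0.28), or 0.16 (SE 0.17) without control 1. None of the tested genes of these lists was called by edgeR at an adjusted p of 0.05.

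Reads of some of the genes could belong to a neighbour, since it is not given whether counting used strand. Exons of 10 of the 41 genes overlap those of another gene, 8 of them, among which are Cdc20, Nusap1 and Ube2c, on the opposite strand only. The share of exonic length concerned was at most 22.8%, for Ube2c with Tnnc2, which had at most 0.09 FPKM. Among opposite-strand partners with an FPKM value, which the partner of Tmpo lacked, the highest was Oip5, at up to 18.3 FPKM, which covers 4.24% of Nusap1.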

How the data were processed

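The table deposited by the authors holds read counts and FPKM per Ensembl gene for 6 libraries. HISAT2, SAMtools, HTSeq, DESeq2 and mm10 are named in the submitters' processing notes, without roles or versions; the notes do not say whether counting used strand. The deposited FPKM could be recomputed from the deposited counts and exonic lengths to within 0.005. Of the 55400 identifiers, 99.5% were found in GENCODE M21, from which coordinates and GC content were taken.

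Counts were tested with edgeR 4.0.16 (R 4.3.3; TMM scaling, quasi-likelihood test, two-sided, Benjamini-Hochberg adjustment, threshold 0.05) over 12199 genes with a mean of at least 1 FPKM. DESeq2 1.42.0, limma 3.58.1 on log2(FPKM + 1), other scalings and filters, a replicate block, trends on GC content and length, and leaving out each library were the alternatives. The test was checked on simulated counts with the same dispersion for all genes, no GC or length trend and no library standing apart. That check therefore does not bear on data with a library like control 1. The labels do not say that equal numbers pair the libraries. Deviations from the group means correlated at 0.183, 0.663 and 0.139 for numbers 1 to 3. All were over 0.1, and on that basis the numbers were used as pairs, a reading from the data only. Among unmatched numbers the values ran from -0.494 to 0.166, the highest, Setd5sh 3 with control 1, above that of matched pair 3. By chi-square per degree of freedom between library counts, control 1 was nearer Setd5sh 3 (140) than Setd5sh 1 (165). Control 3 was nearer Setd5sh 2 (21.3) than Setd5sh 3 (34.1). Only number 2 stood clear, so for numbers 1 and 3 the pairing is an assumption of the replicate block and same-number comparisons. The 41 genes, the other lists and the tests were chosen with earlier results of these data known. Genes given full statistics were 16 of the 41, and the 2 with the smallest p of each other list.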

Additional observations from a re-analysis of the deposited data

How the results depend on the processing

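No setting with the expression minimum called any of the 41 genes. Without the minimum, 73 genes passed in all and 5 of the 41, and Aurkb turned to 0.024 on the log2 scale. DESeq2 with the replicate block called 2 genes, while the edgeR replicate block called 0, with a median log2 fold change of the 41 genes of -0.08 and smaller negative values than without it for Cenpf (-0.568), Kif20b (-0.603), Cenpe (-0.435), Mki67 (-0.412) and Smc4 (-0.577). With GC and length trends removed Cdc27 stood at 0.003, and with the replicate block added at 0.029, where the median of the 41 was 0.001. Leaving out 1 library at a time, 0 to 0 genes were called, 0 to 0 of the 41, and their median lay between -0.182 and 0.064, positive without control 1 alone.

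Leaving out 1 library at a time gave these log2 ranges for those genes, among the ones given full statistics, whose sign changed. Without control 1 alone, 23 of all 41 turned positive and 4 negative. Ccnb1 ran from -0.132 to 0.154, Ccnb2 from -0.186 to 0.024, Cdk1 from -0.017 to 0.148, Plk1 from -0.003 to 0.423 and Aurkb from -0.104 to 0.038. Mki67 ran from -1.382 to 0.455, Top2a from -0.626 to 0.221, Cenpf from -1.75 to 0.395, Kif20b from -1.654 to 0.34, Cenpe from -1.536 to 0.523 and Smc4 from -1.343 to 0.144. Cdc27 ran from -0.785 to 0.289, Knl1 from -1.735 to 0.293, Cenpc1 from -0.827 to 0.027, Sgo2a from -1.172 to 0.084, Ncapg from -1.031 to 0.031, Tfdp2 from -0.482 to 0.058 and Chek1 from -0.778 to 0.114.

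Both following settings were chosen after seeing the data. With the replicate block and pair 1 left out, 70 of the 12199 tested genes passed and 0 of the 41, whose median was 0.072. There Plk1 stood at -0.041, Cdc20 at -0.143, Cdca8 at -0.018, Mki67 at 0.386, Top2a at 0.205, Cenpf at 0.305, Kif20b at 0.308, Cenpe at 0.428, Smc4 at 0.129, G2e3 at 0.035, Cdc27 at 0.329, Knl1 at 0.226, Sgo2a at 0.121, Ncapg at 0.034, Tfdp2 at 0.029 and Chek1 at 0.113. With no expression minimum and no control 1, 93 of the 29462 tested genes passed and 0 of the 41, whose median was 0.073. There Cdk1 stood at -0.009, Mki67 at 0.465, Top2a at 0.232, Cenpf at 0.408, Kif20b at 0.352, Cenpe at 0.535, Smc4 at 0.156, Cdc27 at 0.302, Knl1 at 0.306, Cenpc1 at 0.039, Sgo2a at 0.095, Ncapg at 0.043, Tfdp2 at 0.069 and Chek1 at 0.125. The cause was not tested. At 3 libraries a group with 1 apart, standard errors of 0.57 to 0.76 for Cenpf, Kif20b, Cenpe, Mki67 and Smc4 limit what could be detected.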
